A study of Rattus norvegicus with 36 samples.

Results

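Binding of phosphorylated CREB (pCREB) was compared between trained and untrained rats that had received vehicle, in the hippocampus. The members are the 14722 regions listed for pCREB, of 20029 regions in the deposited table; the other 5307 were listed for the glucocorticoid receptor (GR). They were chosen by the antibody named beside each region, whatever their counts, and their reads were compared in 8 of the 36 samples of the series, 4 pCREB libraries a group. A stretch of chromosome 7 from 143.9 to 144.2 Mb (genome build rn6), where single libraries held extreme reads, was treated apart.

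CREB is a leucine zipper transcription factor that sits at cAMP response elements in promoters and enhancers. Kinases switched on by cAMP, calcium or growth factor signals phosphorylate it on a serine, and this form binds the coactivators CBP and p300. In the hippocampus CREB is known for its role in the lasting changes that follow learning, and its phosphorylation is widely used as a sign of neuronal activation.

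All rats were male Sprague-Dawley, and the series asks how glucocorticoids strengthen memory formation. The untrained vehicle group had no training and got vehicle. The trained vehicle group had training and got vehicle. In the 2 corticosterone groups, untrained and trained, rats got corticosterone, the main glucocorticoid of rats, and they served here only for the shared fit and for comparison. The labels give neither the kind of training, nor the time from training to tissue, nor the age. For every pool, 4 hippocampi of 2 rats were combined and their chromatin was divided between a pCREB and a GR antibody, so that no value belongs to 1 animal and all cell types of the tissue are mixed. More bound copies per cell and more cells with a bound copy cannot be told apart in such pools. The pools are named A to D within a group. Per the labels, the untrained vehicle libraries carry lane 5 and the trained vehicle libraries lane 7, so that lane and training cannot be told apart. The untrained corticosterone libraries carry lane 6 and the trained ones lane 8, so the same limit holds for them. The identity of the tissue was not checked, because no gene annotation of rn6 was used here.

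The 4 untrained vehicle libraries held 226220, 476891, 467014 and 375859 reads in pCREB regions (pools A to D), and the trained vehicle libraries 555104, 562249, 325639 and 412770. The median region held 11 to 24 reads in these libraries, so that single regions rest on few reads. Means were 386496 ± 116126 (SD, n = 4) untrained and 463940 ± 115067 (SD, n = 4) trained, and totals differed by less than the spread between pools (ratio of geometric means 1.22, exact two-sided permutation test of log2 totals p = 0.371, adjusted p = 0.371 over 4 library measures). With 4 libraries against 4, the smallest p that this exact test allows is 0.0286. Untrained vehicle A stood apart from the rest: it had the fewest reads, peak calls in 1495 regions, and 8.65% of its reads in the 3 mitochondrial regions, against 2.05% to 4.79% in the other 7 libraries. No library was a duplicate of another of its group: over the 12 pairs of vehicle libraries within a group, counts differed by a chi-square of at least 1.84 per degree of freedom.

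No pCREB region passed the test for training. Of the 14722 regions, 14553 had enough reads to be tested, and 169 did not. In the edgeR quasi-likelihood fit of all 16 pCREB libraries, 0 of 14553 regions (0%) had a Benjamini-Hochberg adjusted p under 0.05, and the smallest adjusted p was 0.9996. At an unadjusted p under 0.05, 203 regions (1.39%) were higher and 253 (1.74%) were lower in trained rats. DESeq2 also called 0, with 365 regions at an unadjusted p under 0.05 and a smallest adjusted p of 0.0784. Levels of all 4 trained libraries lay above all 4 untrained ones at 92 regions (0.632%) and below them at 138 (0.948%).

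The middle of the distribution lay close to 0. The median log2 fold change, trained minus untrained, was 0.03, and 95% of regions fell between -0.62 and 0.63. The standard error of a region's log2 fold change had a median of 0.32. The 95% interval of a region reached a median of 1.57-fold to either side of its estimate. It lay within a 2-fold change in both directions at 10044 regions (69.0%), and within a 1.5-fold change at 327 (2.25%). A 2-fold change was therefore outside the interval at most regions, while a change of 1.5-fold could not be told from none at most of them. The share within a 2-fold change was 47.7% in the lowest 20% of regions by level and 82.2% in the middle 20%. In the highest 20% it was 60.2%, with 47.1% of those without and 90.0% of those with a GR region. More reads did not always narrow the interval: the median standard error was 0.30 in the middle 20% of regions by level (median 19.1 reads) and 0.35 in the highest 20% (median 53.2 reads). The standard error holds counting noise and the spread between pools together.

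**Figure D1:**
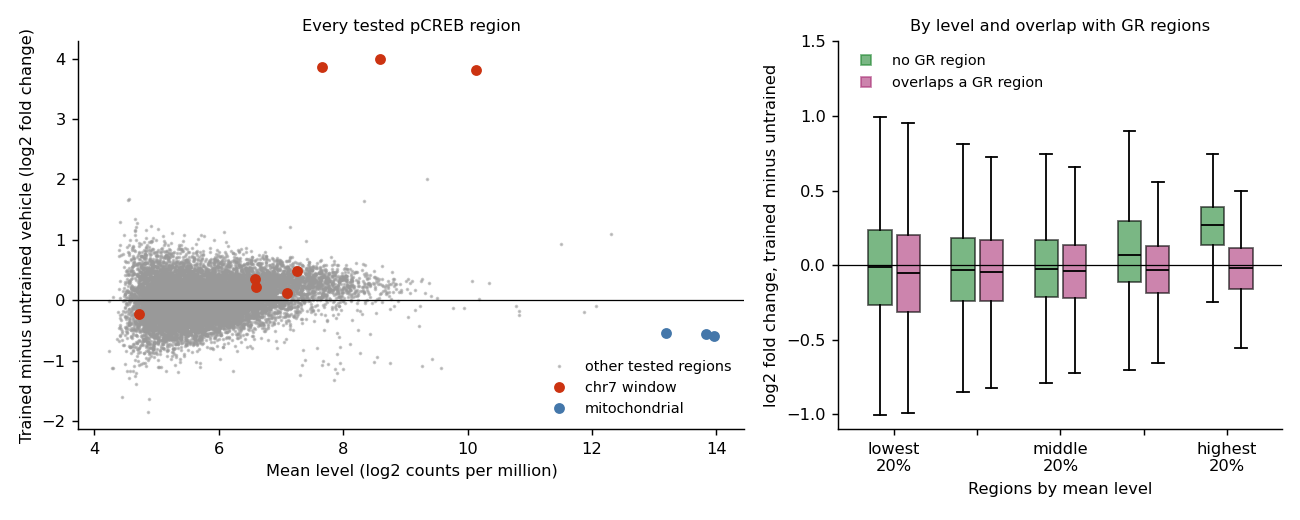
Left, log2 fold change of every tested pCREB region (trained minus untrained vehicle) against its mean level in log2 CPM (reads of a region per 1000000 reads in tested regions). Right, the same fold changes by level, split by overlap with a GR region (box, quartiles with the median; whiskers, 1.5 times the quartile range). The 3 regions near a log2 fold change of 4 lie in the chr7 window, and in the highest 20% of regions the median is 0.27 without and -0.02 with a GR region.

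A fitted change beyond 2-fold was found at 74 regions, 29 higher and 45 lower, none of which passed the test. The 29 comprised 3 of the 8 regions of the chr7 window, 2 of the 27 regions off the assembled chromosomes and 24 of 14497 regions elsewhere. The 45 comprised 12 of 18 regions of a cluster on chromosome 1, described below, and 33 regions elsewhere. Those elsewhere were weak, with a median of 10.4 reads a library for the higher ones and 8.63 for the lower ones.

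More regions carried a peak call in the trained libraries, and most of the difference went with untrained pool A. Peaks had been called per library, and the number of pCREB regions with a call was 1495, 9452, 11286 and 7083 in untrained pools A to D. It was 10147, 8332, 9321 and 12316 in trained pools A to D, so that 1 trained library lay above all untrained ones. Means were 7329 ± 4253 (SD, n = 4) and 10029 ± 1696 (SD, n = 4), a difference of 2700 regions (exact two-sided permutation test p = 0.343, adjusted p = 0.371). That difference was smaller than the SD of the untrained pools and larger than that of the trained pools. Without untrained vehicle A the difference was 755 regions. Calls in at least 3 of 4 libraries were found at 5515 regions (37.5%) in untrained and 9484 (64.4%) in trained rats, and 4503 regions had them in both. The call in untrained pools B, C and D alone was shared by 5238 regions, whereas sets of 3 that include pool A shared 1128 to 1278. In trained rats the sets of 3 shared 4308 to 6248.

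**Figure D2:**
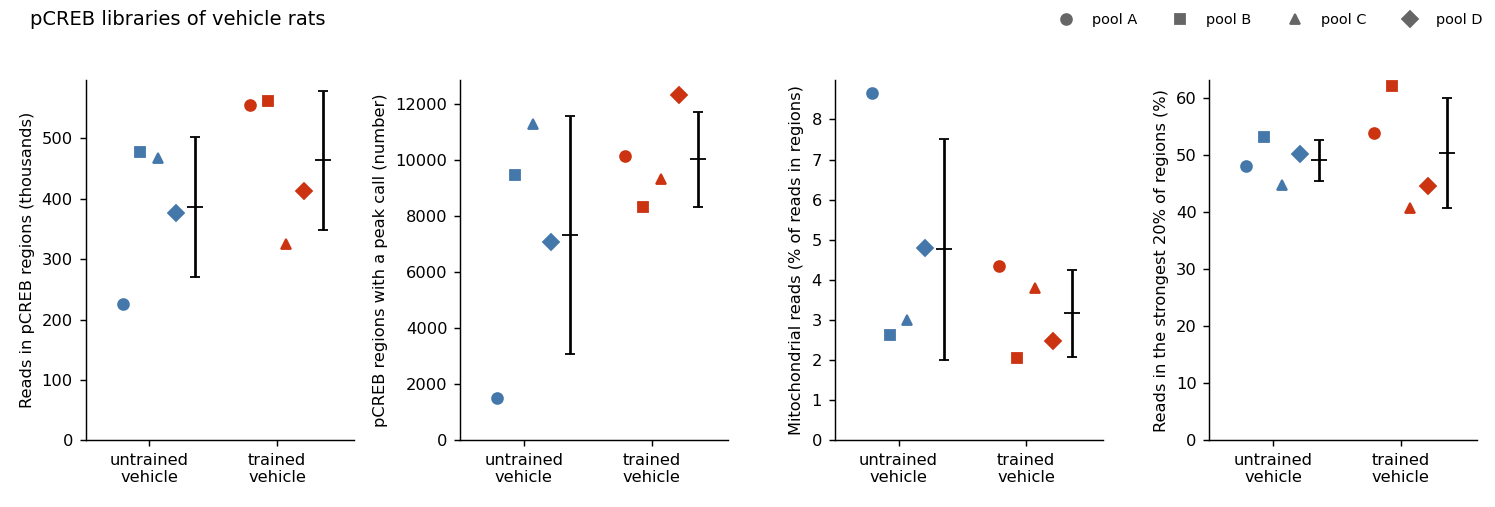
Each point is 1 pCREB library of a vehicle group (shape gives the pool), and bars to the right are the mean ± SD over 4 libraries. Reads in regions, regions with a call, the percentage of mitochondrial reads and the percentage of reads in the strongest 20% of regions overlap between untrained and trained rats, with untrained pool A lowest in reads and calls and highest in mitochondrial reads.

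Read counts were also compared at regions grouped by their calls. At 73 regions called in 0 untrained and 4 trained libraries, the median log2 fold change was 0.41, 72 were positive, and 0 passed the test. At 280 regions called in 3 or 4 untrained and 0 or 1 trained libraries it was -0.43, with 26 positive and 0 passing. The calls come from the same reads as the counts, so these medians describe how the sets were picked and support nothing about training. The 4503 regions called in 3 or 4 libraries of both groups had a median of 0.04.

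Mitochondrial reads made up 8.65%, 2.63%, 2.99% and 4.79% of the reads in untrained pools A to D and 4.34%, 2.05%, 3.80% and 2.48% in trained pools A to D. The groups overlapped (4.77% ± 2.76 against 3.17% ± 1.08, SD, n = 4 each; exact two-sided permutation test of log2 shares p = 0.343, adjusted p = 0.371). The 3 mitochondrial regions had a median log2 fold change of -0.56, and none passed.

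Regions with strong pCREB signal and no GR region differed from the rest in their median, and this rested on trained pool B. Among the highest 20% of tested regions by mean level, 2028 did not overlap a GR region, and their median log2 fold change was 0.27, with 1804 positive (89.0%) and 0 passing the test. The 883 regions of that level that overlapped a GR region had a median of -0.02, with 416 positive (47.1%) and 0 passing. Over all levels the medians were 0.06 for 10319 regions without and -0.03 for 4234 with a GR region. Both sets were picked after their values were seen, so no test is given.

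The 2028 strong regions without GR overlapped between the groups. Their median level (CPM, reads of a region per 1000000 reads in tested regions, after TMM scaling) was 110, 168, 108 and 135 in untrained pools A to D, and 169, 275, 86.0 and 104 in trained pools A to D. Trained pool B was the highest of all 16 libraries, trained pool A was level with untrained pool B, and trained pools C and D were below every untrained pool, so that the trained libraries lay on both sides of the untrained ones. In the corticosterone groups the medians were 142, 125, 101 and 102 (untrained) and 136, 108, 77.6 and 150 (trained). The 883 regions with a GR region had their lowest median among the vehicle libraries in trained pool B (90.0) and their highest in trained pool C (119).

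Leaving out 1 library changed the sign for the strong regions without GR. Without trained pool B their median log2 fold change was -0.13, with 487 of 2028 positive, and without trained pool C it was 0.49. Leaving out any other vehicle library gave 0.18 to 0.44. With total-count scaling in place of TMM the median was 0.14, with 1586 positive, and that of all tested regions moved from 0.03 to -0.03. The percentage of a library's reads in the highest 20% of regions was 48.2%, 53.2%, 44.7% and 50.2% in untrained pools A to D and 53.9%, 62.1%, 40.7% and 44.6% in trained pools A to D; trained pool B had the highest and trained pool C the lowest of the vehicle libraries. Since 2028 of those 2911 regions are the strong regions without GR, this percentage largely repeats their level and is no separate measure.

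**Figure D3:**
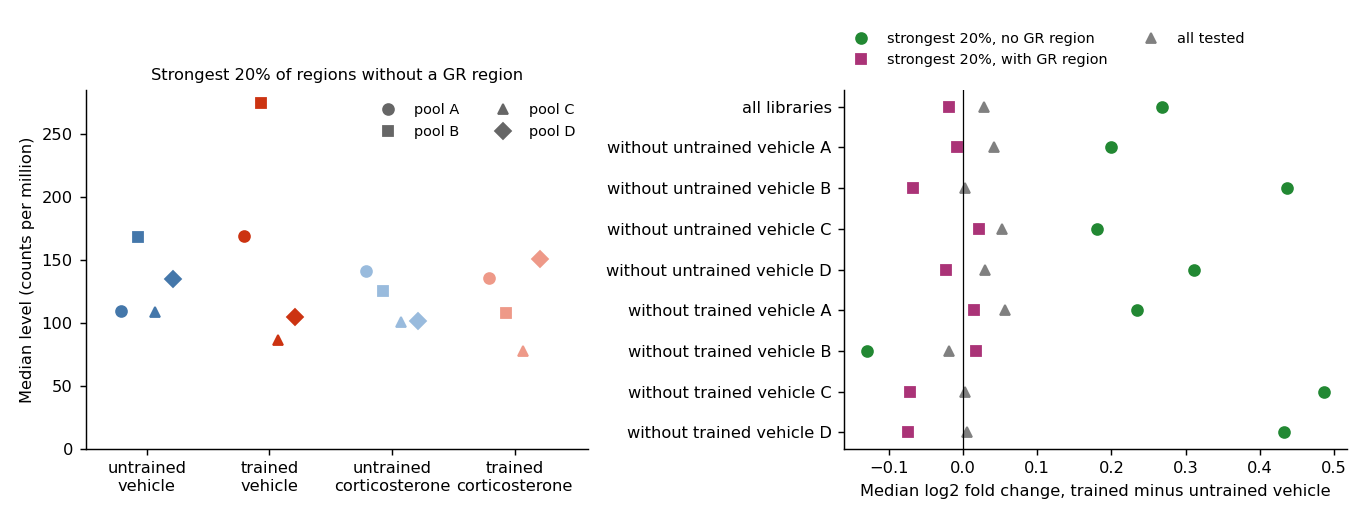
Left, median level in CPM of the 2028 strong pCREB regions without a GR region in each of 16 libraries (shape gives the pool). Right, median log2 fold change of that class, of the 883 strong regions with a GR region and of all tested regions, with all libraries and after leaving out each vehicle library. Trained vehicle B stands highest at 275 CPM, and the median is below 0 only without it.

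The median log2 fold change of the 20 autosomes ran from -0.01 on chromosome 15 to 0.07 on chromosome 10. Chromosome X, with 106 tested regions, had a median log2 fold change of 0.21, 79 positive (74.5%, against 53.5% of all tested regions) and 0 passing. Of its regions, 31 were among the highest 20% by level. Its median level was 52.6, 67.7, 49.1 and 56.8 CPM in untrained pools A to D and 62.5, 78.1, 41.6 and 48.7 CPM in trained pools A to D. As in the strong regions without GR, trained pool B was the highest and trained pool C the lowest of the vehicle libraries, and the groups overlapped.

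Among the regions above the median level and outside the chr7 window, the 10 with the smallest unadjusted p and a higher level in trained rats had fold changes of 1.64 to 2.20. None passed, and all had an adjusted p of 0.9996 (edgeR). At 3 of the 10 the groups did not overlap, against 0.632% of all tested regions; these 10 were picked by p, so their separation supports nothing. The first was chr5:154363058-154363631 (574 bp), with 27.4, 43.6, 43.0 and 35.1 CPM in untrained and 81.5, 121, 55.5 and 48.7 CPM in trained pools A to D. Every trained library was above every untrained one, but pools A and B held most of the rise. Its log2 fold change was 0.99 ± 0.30 (SE, 95% interval 0.39 to 1.60), on 6 to 21 reads in untrained and 20 to 51 in trained libraries. It had no peak call in the untrained libraries and 3 in the trained ones.

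A larger and more uneven difference was seen at chr4:99133642-99134294 (653 bp). Levels were 32.0, 45.8, 38.9 and 43.2 CPM in untrained and 94.7, 166, 50.0 and 46.4 CPM in trained pools A to D (log2 fold change 1.14 ± 0.38, SE, 95% interval 0.36 to 1.92). The groups did not overlap, yet trained pool D was level with untrained pool B, and pools A and B made up most of the rise. At chr1:277637219-277637754, chr2:53810339-53810901 and chr1:13175094-13175884 (log2 fold changes 1.08, 1.06 and 0.96) trained pools A and B were again the highest, and trained pool C lay within the untrained range. Trained pool D also lay within that range at chr1:277637219-277637754 and chr2:53810339-53810901, with 39.4 CPM at each.

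Pools A and B did not lead at every region. At chr6:111732812-111733361 (550 bp), which overlaps a GR region, untrained pools A to D had 36.6, 32.7, 47.1 and 27.0 CPM and trained pools 51.1, 71.0, 66.6 and 51.1 CPM. These groups did not overlap (log2 fold change 0.71 ± 0.27, SE, 95% interval 0.17 to 1.26). At chr20:11992647-11993140 and chr2:56232046-56232588 the log2 fold changes were 0.82 and 0.80; trained pool C, not B, was highest, and trained pool A lay within the untrained range. At chr9:46642171-46642769 (0.78) trained pool D was highest and trained pool C lay within the untrained range. At chr1:233214529-233215110 (0.86) levels were again highest in trained pools A and B, at 131 and 199 CPM, against 80.5 and 65.0 CPM in pools C and D. Under corticosterone, trained minus untrained, these 10 regions had log2 fold changes from -0.20 to 0.43 with a median of 0.01. In that contrast, which uses other libraries, 6 were positive and 0 had an unadjusted p under 0.05.

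The 10 regions with the smallest unadjusted p and a lower level in trained rats were 1.70-fold to 2.49-fold lower. None passed (adjusted p = 0.9996, edgeR). At 4 of them the groups did not overlap, against 0.948% of all tested regions, and here too the choice by p fixed much of that. At chr18:26194122-26194846 (725 bp) levels were 96.0, 105, 88.0 and 89.2 CPM in untrained and 49.3, 66.3, 58.3 and 48.7 CPM in trained pools A to D. Both groups were tight and lay apart, with a log2 fold change of -0.76 ± 0.26 (SE, 95% interval -1.29 to -0.24). At chr7:24708277-24708845, far from the chr7 window, levels were 64.0, 69.8, 73.7 and 54.1 CPM in untrained and 37.9, 23.7, 47.2 and 44.1 CPM in trained pools A to D (log2 fold change -0.79 ± 0.26, SE). These groups also lay apart.

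At chr12:8883005-8883548, which overlaps a GR region, levels were 101, 80.7, 57.3 and 51.4 CPM in untrained and 37.9, 49.7, 44.4 and 30.2 CPM in trained pools A to D (log2 fold change -0.80 ± 0.27, SE). The groups lay just apart. GR reads at the overlapping GR region differed by a log2 fold change of 0.01 in the same pools. The region with the smallest p of all 10, chr12:3341020-3341288 (269 bp), had 160, 50.2, 127 and 97.3 CPM in untrained and 47.4, 35.5, 80.5 and 25.5 CPM in trained pools A to D (log2 fold change -1.18 ± 0.35, SE). There the groups overlapped, because untrained pool B was as low as the trained pools. The other 6 of the 10 lie on chromosome 1 between 180503015 and 182012187. Under corticosterone the 10 regions had log2 fold changes of -0.01 to 0.50, 8 of them positive and 0 with an unadjusted p under 0.05.

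**Figure D4:**
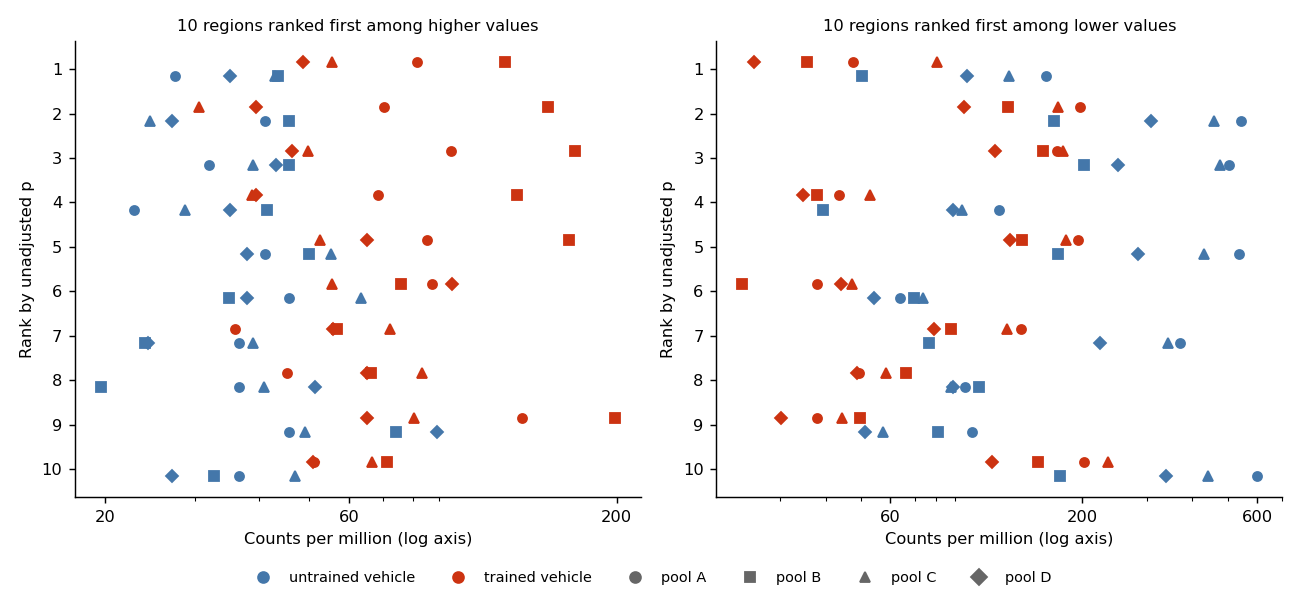
Level in CPM (log axis) of the 10 regions ranked first by unadjusted p among those higher (left) and lower (right) in trained vehicle rats, 1 point a library (colour gives the group, shape the pool). On the left trained pools A and B lie highest at most ranks, and on the right untrained pool B often lies among the trained libraries. None of these 20 regions passed the test.

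The lower regions of chromosome 1 belong to a cluster of 18 tested pCREB regions between chr1:180503015 and chr1:182012187. This cluster was noticed in the data, so it is described with no test. All 18 had a negative log2 fold change, from -1.31 to -0.04 with a median of -1.04; 17 had an unadjusted p under 0.05, and none passed (smallest adjusted p = 0.9996, edgeR). For comparison, 1.74% of all tested regions were lower at that p. Over 1193 windows of 1 Mb with at least 5 regions, the 2 windows of this stretch had the lowest medians, -1.06 and -1.03, followed by a window at 33 Mb of chromosome 13 with -0.77. The highest window median was 0.43, at 60 Mb of chromosome 16.

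Untrained pools differed among themselves across the cluster. It took 0.973%, 0.317%, 0.889% and 0.559% of the pCREB reads in untrained pools A to D and 0.377%, 0.207%, 0.443% and 0.265% in trained pools A to D. Untrained pool B was within the trained range, and at 17 of the 18 regions the groups overlapped. Trained libraries lay below all untrained ones at only 0.948% of all tested regions, so overlap is usual and says little about the cluster. At chr1:182011756-182012187, the region with the lowest fold change, levels were 544, 168, 458 and 308 CPM in untrained and 197, 126, 172 and 95.1 CPM in trained pools A to D (log2 fold change -1.31 ± 0.40, SE). At chr1:181014452-181015215, where the groups did not overlap, they were 503, 203, 475 and 251 CPM and 170, 156, 178 and 116 CPM (log2 fold change -1.20 ± 0.37, SE). The remaining regions named by rank were chr1:180503015-180503312, chr1:181013959-181014398, chr1:180755878-180756500 and chr1:180558190-180558673, at -0.97, -1.14, -1.23 and -1.13.

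Under corticosterone the cluster had the opposite sign. Its median log2 fold change for training was 0.31 there, with 17 of 18 positive. It took 0.373%, 0.313%, 0.571% and 0.356% of reads in untrained pools A to D. In trained pools A to D it took 0.656%, 0.350%, 0.636% and 0.306%, so that only A and C lay above the untrained range. Trained corticosterone A had the fewest reads of all 16 libraries (143219), calls in only 1169 regions and 7.91% mitochondrial reads. The difference between the training effects had a median of -1.25 and an unadjusted p under 0.05 at 17 of 18 regions, but the smallest adjusted p was 0.999 (edgeR); 3.3% of all tested regions had such a p. The stretch also held 10 tested GR regions, with a median log2 fold change for training in vehicle rats of -0.37, 8 negative and 0 with an unadjusted p under 0.05, against 3.06% of all GR regions. In GR libraries the cluster took 1.72%, 0.416%, 0.768% and 0.334% of reads in untrained and 0.803%, 0.496%, 0.909% and 0.395% in trained vehicle pools A to D. Untrained pool A, which had the largest percentage of mitochondrial reads, was also highest for the cluster with both antibodies. Without it the median of the pCREB regions was -0.82, and without untrained pool B it was -1.29.

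The chr7 window held the largest fold changes of the comparison, and they came from 2 of the 4 trained libraries. All 8 of its pCREB regions were tested. The largest, chr7:144015523-144017621 (2099 bp), had 84, 100, 113 and 63 reads in untrained pools A to D and 123, 3842, 143 and 1838 reads in trained pools A to D. Trained pools B and D thus held more than 10 times as many reads as any other vehicle library, while trained pools A and C were close to the untrained ones. The log2 fold change was 3.81 ± 0.86 (SE, 95% interval 2.02 to 5.60) and did not pass (adjusted p = 0.9996, edgeR).

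Its neighbours showed the same 2 libraries. Region chr7:144038490-144040019 had 28, 29, 44 and 13 reads in untrained and 43, 1367, 54 and 636 reads in trained pools A to D (log2 fold change 3.99 ± 0.93, SE). Region chr7:144040527-144041196 had 17, 11, 27 and 7 reads in untrained and 24, 689, 29 and 301 reads in trained pools A to D (log2 fold change 3.86 ± 0.92, SE). Neither passed. In CPM the groups overlapped at all 3 regions; at the largest, trained pool A had 233 CPM and untrained pool A 384 CPM. The other 5 regions of the window, of which 2 lie next to the largest, had log2 fold changes of only -0.22 to 0.48, none with an unadjusted p under 0.05. They were chr7:144077386-144078531 (0.48), chr7:144169657-144170636 (0.12), chr7:144014059-144014761 (0.22), chr7:144012786-144013408 (0.35) and chr7:143968045-143968350 (-0.22). For training under corticosterone the 3 extreme regions had log2 fold changes of 2.22, 1.74 and 1.37, none passing. The other 5 had -0.42 to 0.31. At the largest region levels were 101, 169, 175 and 63.6 CPM in untrained corticosterone pools A to D. Trained corticosterone pools A to D had 1332, 284, 418 and 398 CPM there. The corticosterone groups did not overlap at this region or at chr7:144038490-144040019, but did at chr7:144040527-144041196. Of all 14553 tested regions, 175 had every trained corticosterone library above every untrained one. The 3 regions were set apart because of their extreme reads, so their separation supports nothing.

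The whole window took 0.0977%, 0.0835%, 0.0788% and 0.0684% of the reads in untrained pools A to D and 0.0859%, 1.11%, 0.116% and 0.718% in trained pools A to D. Means were 0.0821% ± 0.0122 and 0.508% ± 0.496 (SD, n = 4 each), and the groups overlapped at trained pool A (ratio of geometric means 3.67, exact two-sided permutation test of log2 shares p = 0.0571, adjusted p = 0.229). The 3 extreme regions held 65.1%, 23.2% and 11.7% of their 5898 summed reads in trained pool B and 66.2%, 22.9% and 10.8% of 2775 in trained pool D. In the other 14 pCREB libraries, with 42 to 271 reads in all 3, these percentages ranged from 59.5% to 75.9%, 15.7% to 24.3% and 7.38% to 19.6%.

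GR libraries of the same pools showed extreme reads at these 3 places too, in another set of pools. Summed over the 3 GR regions there, reads were 147, 945, 347 and 7139 in untrained vehicle pools A to D, 297, 224, 154 and 6914 in trained vehicle pools A to D, 467, 7074, 84 and 1254 in untrained corticosterone pools A to D, and 530, 7508, 182 and 2378 in trained corticosterone pools A to D. The chromatin of trained vehicle pool D was therefore extreme with both antibodies. Trained vehicle pool B was extreme with the pCREB antibody only, and untrained vehicle pool D with the GR antibody only. With the GR antibody, extreme reads were found in trained and untrained rats and under both treatments.

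**Figure D5:**
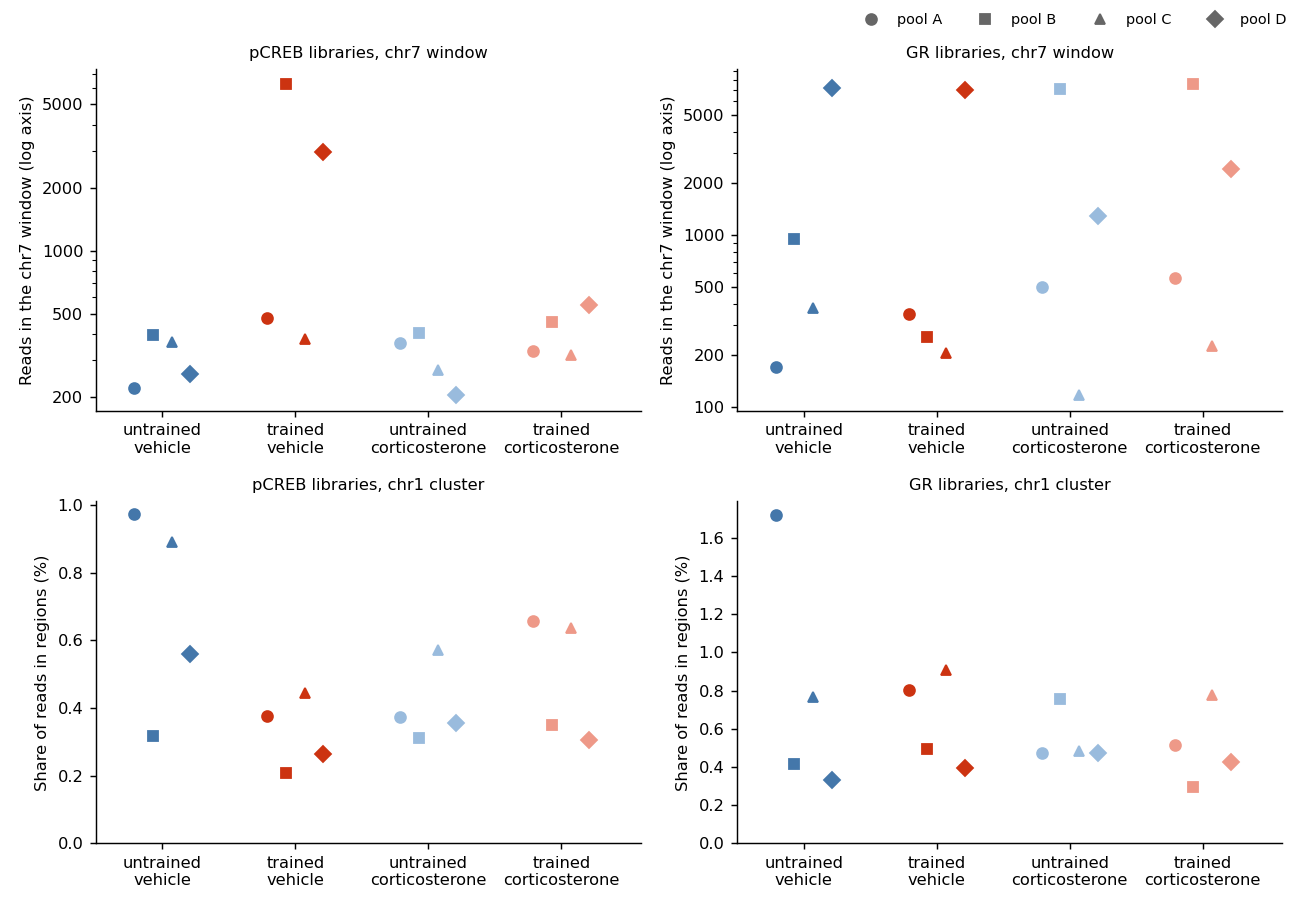
Top, reads in the chr7 window in every pCREB (left) and GR (right) library on a log axis. Bottom, percentage of a library's reads that fell in the chr1 cluster (pCREB left, GR right), with shape giving the pool. The chr7 window is high in trained vehicle pools B and D for pCREB and in pool B or D of each condition for GR, and the chr1 cluster is highest in untrained vehicle pool A with both antibodies.

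Whether the chr7 regions were called depended on the libraries in the fit and on its settings. With all 16 libraries but without robust estimation all 3 were called (adjusted p = 0.0414 to 0.0456, edgeR). Without trained vehicle A all 3 extreme regions were called (log2 fold changes 4.20, 4.39 and 4.25, adjusted p = 0.00169, edgeR). Without trained corticosterone A, which is in neither compared group but sets the spread, they were also called (adjusted p = 0.0291). Without both extreme libraries, trained B and D, no region was called. Outside the window 0 regions were called under each of the 12 alternatives run, with a smallest adjusted p of 0.343 (edgeR).

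None of the strongest pCREB regions by level per length passed the test. The 10 regions with the highest mean CPM per kb lay in a group of 4 on chromosome 4 (77447818 to 77453157), at single places on chromosomes 19 and 20, and on 4 unplaced contigs. All 10 had a peak call in 4 of 4 libraries of each group, and all 10 overlapped a GR region. At chr4:77447818-77448488 (671 bp) levels were 5187, 3339, 3081 and 3998 CPM in untrained and 2963, 3843, 3419 and 3339 CPM in trained pools A to D. The log2 fold change was -0.20 ± 0.37 (SE, 95% interval -0.96 to 0.56). At chr19:56337687-56339292 (1606 bp) levels were 5516, 3586, 4155 and 4733 CPM in untrained and 3624, 4456, 4588 and 4103 CPM in trained pools A to D (log2 fold change -0.10 ± 0.34, SE, 95% interval -0.79 to 0.59). In both, untrained pool A was highest and the other pools overlapped. The remaining assembled places, chr20:40913386-40913966, chr4:77452299-77453157, chr4:77449526-77449976 and chr4:77451704-77452020, had log2 fold changes of -0.24, -0.18, -0.13 and -0.17. In 6 of the 10 the interval lay within a 2-fold change.

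Among the trained vehicle libraries, unplaced contigs were highest in pools B and D, as the chr7 window was. At chrUn.302:5802-7256 (1455 bp) levels were 3633, 2488, 2453 and 1497 CPM in untrained and 1394, 11258, 691 and 8168 CPM in trained pools A to D. Trained pools B and D were high and trained pools A and C lower than every untrained pool. The log2 fold change was 1.10 ± 1.18 (SE, 95% interval -1.46 to 3.65). At chrUn.51:1-655 levels were 2152, 1532, 1690 and 930 CPM and 856, 6016, 452 and 4732 CPM, in the same order (log2 fold change 0.94 ± 1.10, SE). Without trained pools B and D both fold changes turned negative, at -1.23 and -1.22. At chrUn.143:1-294 and chrUn.284:937-1629 the log2 fold changes were -0.13 and -0.10. Over all 16 libraries, trained vehicle B, trained vehicle D and trained corticosterone A were highest at chrUn.302:5802-7256, chrUn.51:1-655 and the largest chr7 region, in another order. At chrUn.143:1-294 and chrUn.284:937-1629 untrained vehicle A lay above trained vehicle D. Trained corticosterone A was the highest library at all of these contigs, with 36887 CPM at chrUn.302:5802-7256 and 19887 CPM at chrUn.51:1-655. At the largest chr7 region it had 1332 CPM, against 9097 and 4265 CPM in trained vehicle B and D.

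Training under corticosterone, measured in the other 8 pCREB libraries, called 0 regions as well (452 at an unadjusted p under 0.05, 3.11%; smallest adjusted p = 0.9998, edgeR). The difference between the training effects passed at 0 regions (480 at an unadjusted p under 0.05, 3.3%; smallest adjusted p = 0.999, edgeR). Across the 14553 regions the training effects of vehicle and corticosterone rats had a Pearson correlation of -0.03 and a Spearman correlation of -0.06. They share no library but share 1 fit, and regions are not independent replicates. Of the 456 regions with an unadjusted p under 0.05 in vehicle rats, 219 (48.0%) had the same sign under corticosterone, against 47.2% of all tested regions. Such a p in both contrasts was found at 3 regions with the same sign and at 8 with the opposite sign. Since 3.13% of all tested regions had it in vehicle rats and 3.11% under corticosterone, small shared counts say little. Trained libraries lay above all untrained ones in both contrasts at 1 region and below in both at 1. Of the 14553 regions, they lay above at 92 in vehicle rats and at 175 under corticosterone. They lay below at 138 and 192, and the shared counts were not tested. For GR in the same vehicle pools, 0 of 4968 tested regions were called for training, and 152 (3.06%) had an unadjusted p under 0.05 (edgeR).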

How the data were processed

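ChIP-seq reads of 16 pCREB libraries (4 a condition) were analysed as raw counts per region, deposited by the authors with no normalization, per the file headers and values. The submitters' processing notes list MACS2 2.1.1.20160309, HTSeq 0.6.1-1, BWA 0.7.10, bedtools 2.26.0 and build rn6, without parameters. Per the names of the calls beside each region, peaks were called per library and merged, so that regions are listed because of signal in these libraries. Inputs were not used here.

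Counts were fitted with edgeR 4.0.16 (R 4.3.3; quasi-likelihood, robust, TMM, filterByExpr, 4 groups, no covariate). Regions with a Benjamini-Hochberg adjusted p under 0.05 were called. The standard error is the absolute log2 fold change over the square root of F. CPM are reads per 1000000 after TMM. Overlap with a GR region means at least 1 bp (GenomicRanges 1.54.1). Library measures were compared with exact permutation tests (scipy 1.17.1). Counting noise bounds every value, and PCR reads without molecular identifiers are not independent molecules. Scripts were tested on simulated data.

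Named regions were, outside the chr7 window and the mitochondrial regions, the 10 with the smallest p in each direction above the median level, all 8 of the chr7 window, and the 10 with the highest CPM per kb. Names by gene, marker lists and sequences were not used, since no annotation or sequence of rn6 was used here; the chr7 window was treated apart. Members and lists were chosen with earlier results of these data known. Letters of pools were not used to pair libraries in the main fit. Alternatives were DESeq2 1.42.0, other scaling, filters, thresholds and library sets, and a replicate block.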

Additional observations from a re-analysis of the deposited data

Results flagged for a closer look

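In 3 of 90 groups of 4 vehicle libraries examined (library measures and levels at named regions), 1 library lay far from the other 3, with a gap to its nearest neighbour above Dixon's critical value for 4 samples; chance flags about 1 in 20 such groups. Trained vehicle B had 189 CPM at chr7:144014059-144014761, above the other trained pools. Untrained vehicle B had 107 CPM at chr7:144012786-144013408, above the other untrained pools. Untrained vehicle A had 2184 CPM at chrUn.284:937-1629, above the other untrained pools.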

How the results depend on the processing

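The count of 0 regions called for training in vehicle rats held under 29 of 32 alternatives. The exceptions gave 3 regions each, the extreme regions of the chr7 window: without robust estimation (smallest adjusted p 0.0414), without trained vehicle A and without trained corticosterone A; leaving out 1 library gave 0 to 3 regions. Unadjusted calls ranged from 322 to 1004, highest without trained vehicle C; the cause was not tested. Outside the window, under corticosterone and for the difference, counts were 0 throughout. Library measures kept their direction and side of the threshold; without 1 vehicle library the difference ranged from 0.05 to 0.45 (log2 reads), 755 to 4019 (regions called), 1.24 to 2.47 (log2 chr7 share) and -0.72 to -0.15 (log2 mitochondrial share).

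Pool letters were not used to pair libraries in the main fit. Same-letter deviations correlated at -0.17 to 0.49, 2 of 4 above 0.1, and 4 of 8 libraries were closest to their own letter. Pools B and C correlated best with their own letter (0.49 and 0.32), and pools A and D did not (-0.17 and -0.04). These values do not settle whether letters pair libraries. With a replicate block 0 regions were called (497 at an unadjusted p under 0.05 with 16 libraries, 457 with the vehicle libraries), and chrUn.284:937-1629 turned to 0.017. It changed no call. With the vehicle libraries only, the block moved the 3 extreme chr7 regions from 3.81, 3.99 and 3.86 to 2.55, 2.81 and 2.75, chrUn.302:5802-7256 from 1.10 to 0.34 and chrUn.51:1-655 from 0.94 to 0.26. The median of the strong regions without GR moved from 0.27 to 0.13, and to 0.19 with 16 libraries.

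Of 1132 refitted log2 fold changes at 38 named regions, 15 turned sign, none of them called. Leaving out 1 library gave -0.40 to 0.092 at chrUn.143:1-294, -0.43 to 0.14 at chrUn.284:937-1629, -0.20 to 0.013 at chr19:56337687-56339292 and -0.16 to 0.47 at chr7:144014059-144014761. The last was -0.045 without trained vehicle B and D, which gave -1.22 at chrUn.51:1-655 and -1.23 at chrUn.302:5802-7256. Without untrained vehicle A and trained corticosterone A values were 0.084 at chrUn.143:1-294, 0.011 at chr19:56337687-56339292 and 0.13 at chrUn.284:937-1629. These 2 joint omissions and a fit with the percentage of reads in the highest 20% of regions as a covariate (0 called) were chosen after seeing the data. Intervals of single regions reached a median of 1.57-fold, from depth and spread between pools together, and lane cannot be told apart from training.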
